A study of Drosophila melanogaster with 3 samples.

Results

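The genes described are 9 regulators of mitosis in Drosophila melanogaster: polo, aurA, aurB, BubR1, Bub1, Bub3, mad2, Mad1 and Mps1. They were taken from a fixed list of symbols, and each matched exactly 1 of 13968 protein-coding genes in the annotation. The list was chosen with earlier results of these data known. The data are peaks of chromatin immunoprecipitation sequencing (ChIP-seq) for Trem, a zinc finger protein best known in flies for its part in starting meiotic recombination. Whole embryos of both sexes, collected 0 to 14 hours after laying, came from a line stably expressing Trem with a GFP at its C terminus, and the precipitation is described as done with an anti-GFP antibody, although another label names trem as the antibody. There were 3 biological replicates of this single group, with no other genotype, treatment or stage. The embryos were not separated into tissues, so a peak cannot be placed in a cell type. Libraries without the tagged protein were not analysed here, so what any protein gives at an open promoter was not separated from Trem.

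The spindle assembly checkpoint delays anaphase until every kinetochore, the protein body on a centromere, is attached to spindle microtubules. The kinase Mps1 starts the signal at an unattached kinetochore and brings in Bub1 with its partner Bub3, and Mad1 then serves there as the platform on which Mad2 (gene mad2) is made active. Mad2, BubR1 and Bub3 hold the anaphase-promoting complex activator Fzy in an inactive complex. Polo drives mitotic entry, centrosome maturation and cytokinesis, Aurora A (aurA) acts at centrosomes and spindle poles, and Aurora B (aurB) corrects faulty attachments as the kinase of the chromosomal passenger complex. Both the Polo and the Aurora families are named after Drosophila mutants, and the early embryo, which divides as a syncytium, relies on these proteins as maternal products.

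The DNA under the summits differed from gene to gene, and 6 windows are shown as examples. They come from the RefSeq genome of the dm6 assembly and are given 5′ to 3′ on the strand of the named gene. Each runs 75 bp to both sides of the summit unless it would take in more than 30 bases of annotated exon. Capitals mark letters of the motifs listed after the sequences, on either strand.
Bub3, chr3R:29675464-29675614, minus strand: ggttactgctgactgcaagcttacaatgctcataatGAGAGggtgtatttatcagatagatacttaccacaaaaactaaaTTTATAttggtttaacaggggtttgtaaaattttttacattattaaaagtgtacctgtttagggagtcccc
aurA, chr3R:11962920-11963070, plus strand: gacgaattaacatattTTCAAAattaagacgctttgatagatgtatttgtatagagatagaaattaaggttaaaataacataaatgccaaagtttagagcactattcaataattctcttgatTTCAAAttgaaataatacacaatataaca
Mps1, stronger summit, chr3R:17670927-17671077, plus strand: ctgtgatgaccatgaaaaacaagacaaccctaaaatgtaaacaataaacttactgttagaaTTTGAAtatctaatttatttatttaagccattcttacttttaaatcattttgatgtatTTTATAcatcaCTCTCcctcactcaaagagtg
Mps1, weaker summit, chr3R:17671130-17671280, plus strand: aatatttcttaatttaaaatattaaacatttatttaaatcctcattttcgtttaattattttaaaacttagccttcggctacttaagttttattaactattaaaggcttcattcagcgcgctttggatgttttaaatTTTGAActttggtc
mad2, chr3L:5813092-5813242, minus strand: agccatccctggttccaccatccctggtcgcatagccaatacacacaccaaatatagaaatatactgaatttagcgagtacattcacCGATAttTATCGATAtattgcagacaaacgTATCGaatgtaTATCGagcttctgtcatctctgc
Bub1, chr2L:5278519-5278622, plus strand: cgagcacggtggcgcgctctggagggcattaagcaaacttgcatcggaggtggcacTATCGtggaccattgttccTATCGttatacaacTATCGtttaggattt

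The letters TATCGATA, the DNA replication-related element (DRE) of many fly growth genes, were found in the mad2 window, 52 bp upstream of its transcription start site (TSS). A search within 100 bp of each of the 10 summits at these genes found them at mad2 and BubR1 only, against 13.8% of the 4694 IDR summits within 500 bp of a protein-coding TSS. The letters CGATA, a core bound by the boundary factor BEAF-32 and contained in the DRE, lay in 5 of the 10 summit windows, at polo, BubR1, Bub1, Bub3 and mad2, against 49.5% of those promoter summits. In mad2 they occurred 5 times, and in Bub1 3 times, all in the shown stretch between Bub1 and its neighbour. Mps1 alone had GTCACACT, the core of core promoter Motif 1, 10 bp downstream of its TSS and just outside the window shown (9.39% of promoter summits). The letters TTTGAA, the cell cycle homology region known from mitotic promoters in mammals, were in 6 windows, belonging to polo, aurA, Bub1, mad2 and both summits of Mps1 (37.2% of promoter summits). TATAAA was in 5 windows, those of aurB, Bub1, Bub3, Mad1 and the stronger Mps1 summit (34.6%), and GAGAG in 2, those of Bub3 and the stronger Mps1 summit (17.6%). Neither the E-box CAGCTG nor any of the E2F sites TTTCCCGC, TTTGGCGC, TTTCGCGC and TTTGCCGC was found in the 10 windows, against 14.7% and 4.99% of promoter summits. The matches are of letters only. The search reached 100 bp from each summit, further than the sequences shown. Matches of TTTGAA at Bub1 and mad2, of TATAAA at Bub1 and of CGATA at Bub3 lie outside the shown stretches. GC content ranged from 22.4% at the weaker Mps1 summit and 23.9% at aurB to 42.3% at mad2, with a median of 35.8% over all promoter summits and 5th and 95th percentiles of 24.9% and 49.8%.

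All 9 genes had a Trem-eGFP peak at a TSS. The list used is the one kept by the irreproducible discovery rate (IDR) filter, which compares peak ranks between libraries. It holds the 7477 strongest pooled peaks, so a peak in it need not have ranked alike in each replicate. A gene counts as having a peak when a summit in this list lies no more than 500 bp from one of its TSSs. By this measure 9 of 9 had a peak, where 41.7% of protein-coding genes did. Among the 7477 strongest peaks of each replicate, as many as the IDR list holds, 8 of the 9 genes had a summit at a TSS in every replicate, against 34.3% of protein-coding genes. The exception was mad2, which missed this limit in replicate 1. The position of the peak was less repeatable. The strongest IDR summit at a TSS had a replicate summit within 100 bp in all 3 whole lists at 6 of the 9 genes. Of the 5818 genes with a peak, 88.8% did. Bub1, mad2 and Mps1 lacked one in at least 1 replicate, which at Mps1 concerns the stronger of 2 IDR summits. Signal values come from the authors and differ in scale between lists. Genes are therefore compared by signal within the IDR list and by rank, 1 being the strongest, between the replicate lists of 30000 peaks. Over the 9 genes the IDR signal had a median of 475.7 and ran from 155.4 to 8294. Over all 5818 genes with such a peak the median was 329.3, and 5 of the 9 genes were above it.

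**Figure D1:**
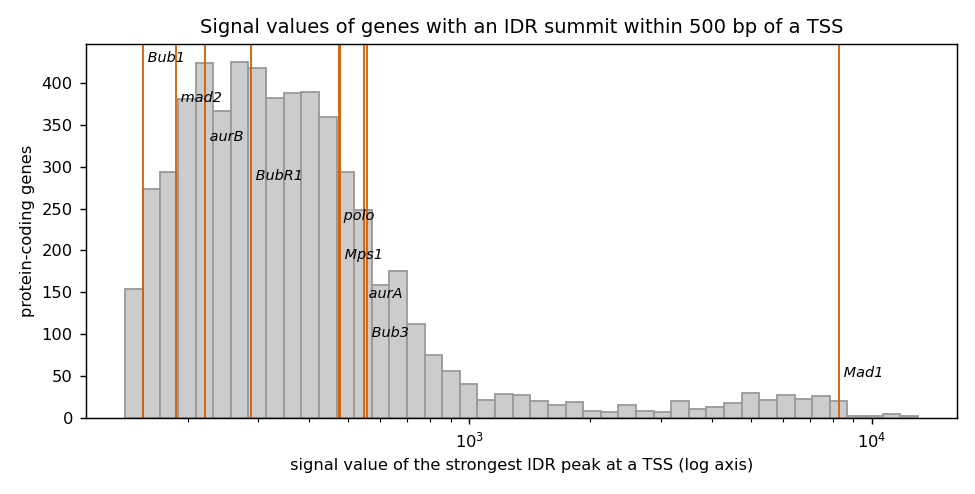
Histogram of the signal value of the strongest IDR peak at a TSS (x, log axis) for the 5818 protein-coding genes with such a peak (y, number of genes), with a line at the value of each of the 9 genes. Mad1 stands at 8294 among the few genes on the far right, and the others lie between 155.4 and 558.8 within the main body.

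Mad1 had by far the strongest peak of the 9, in a divergent promoter that it shares with Drep2. Its summit at chromosome 2R position 9291730 (dm6) lay 165 bp upstream of Mad1 (FBgn0026326, 2R 9288957 to 9291565, minus strand), in intergenic sequence. The signal of 8294 ranked 14 in the IDR list, and the ranks in replicates 1, 2 and 3 were 23, 10 and 23, with signals of 3503, 2546 and 2263 on the scales of those lists. In all 3 libraries the peak was thus among the strongest few, and only 0.275% of the genes with a peak had a higher signal. Signals above 4000 were found for 3.27% of genes with a peak and for 1 of these 9. Drep2 (FBgn0028408), a gene related to DNA fragmentation factors, starts 291 bp from the Mad1 TSS on the other strand. The summit lay 126 bp upstream of Drep2, nearer to it than to Mad1. The peak spanned 9291324 to 9292091 and covered both TSSs, so the signal cannot be assigned to either gene.

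Bub3, aurA, Mps1 and polo formed a middle group with similar ranks, a grouping made after the values were seen. Bub3 (FBgn0025457, 3R 29674007 to 29675421, minus strand), which encodes the WD-repeat partner of both Bub1 and BubR1, had a signal of 558.8, with replicate ranks of 973, 803 and 1689. The summit at 3R position 29675539 lay 118 bp upstream of Bub3 and 112 bp upstream of Cap-D2, a condensin subunit gene on the other strand whose TSS is 230 bp away. Replicates 1 and 2 placed the summit within 6 bp of this position, and replicate 3 placed it 63 bp nearer to Bub3.

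Next was aurA (FBgn0000147, 3R 11963124 to 11964826, plus strand) with a signal of 548.3 and replicate ranks of 1030, 1217 and 1323. These 3 ranks were the closest together of any of the 9 genes, with a highest rank 1.28 times the lowest. The summit at 3R position 11962995 lay 129 bp upstream of aurA and 190 bp upstream of CG3281, which starts 319 bp away on the other strand. The nearest summits of the replicates were 20, 30 and 74 bp from it.

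Mps1 (FBgn0000063, 3R 17671271 to 17673828, plus strand) was the only one of the 9 with 2 IDR summits, which 13.1% of genes with a peak had. The stronger, at 3R position 17671002 with a signal of 478.3 and IDR rank 1373, lay 269 bp upstream of Mps1 but 107 bp upstream of CG7523, the gene on the other side of the divergent promoter. The weaker, at 17671205 with 329.9 and IDR rank 2741, lay 66 bp upstream of Mps1 and 310 bp upstream of CG7523. Replicates 1 and 3 each resolved a pair of summits, while replicate 2 had a single summit 162 bp upstream of Mps1, between the IDR positions. Its distance of 107 bp from the stronger IDR summit is just over the 100 bp used to call summits shared. The weaker IDR summit was nearer to it and within that 100 bp, so only the stronger summit lacked a match in replicate 2. The strongest summit at Mps1 ranked 1633, 912 and 1426 in replicates 1, 2 and 3, so the gene was among the upper ranks in each library although the position differed.

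At polo (FBgn0003124, 3L 20309654 to 20313466, plus strand) the signal was 475.7 and the replicate ranks were 1536, 1852 and 1013. The gene has annotated TSSs 393 bp apart, and the summit at 3L position 20309930 fell between them. It lay 117 bp upstream of the inner TSS and 276 bp downstream of the outer one, within the 5′ untranslated region of the longer transcript. Replicate summits were 0, 32 and 22 bp from it. No other gene started within 500 bp. The gene upstream, SCCRO4, is on the same strand and ends 143 bp before the outer TSS.

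**Figure D2:**
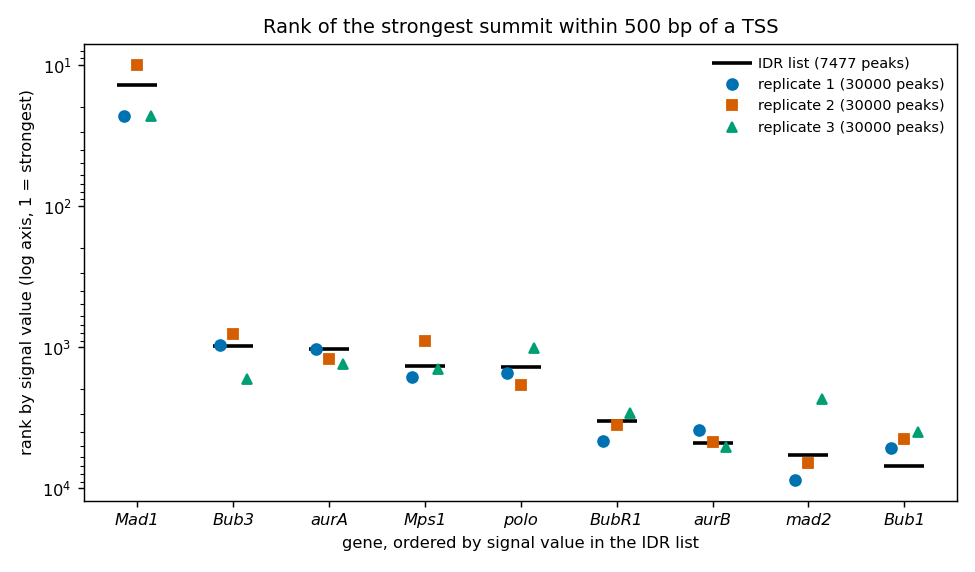
Rank of the strongest summit within 500 bp of a TSS (y, log axis, strongest at the top) for each of the 9 genes (x) in each of the 3 replicate lists (symbols) and in the IDR list (bars). Mad1 lies at ranks 10 to 23, the middle 4 genes at 803 to 1852 and the last 4 at 2340 to 8767.

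BubR1, aurB, mad2 and Bub1 had the weaker peaks. BubR1 (FBgn0263855, 2R 5969099 to 5974385, minus strand), the checkpoint protein that binds Fzy, had a signal of 287.3, with replicate ranks of 4609, 3577 and 2953. Its summit at 2R position 5974460 lay 75 bp upstream of the TSS and was not shared. The gene upstream, mle, is on the same strand and ends 472 bp away, so its TSS is not near the peak. All 3 replicates had a summit within 37 bp.

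The signal of aurB (FBgn0024227, 2L 10856797 to 10858094, minus strand) was 220.6, with replicate ranks of 3899, 4676 and 5079. Its summit at 2L position 10858350 lay 256 bp upstream, in the gap of 442 bp to Stam, an endosomal sorting gene on the other strand, and was nearer to Stam, at 186 bp upstream. Replicates 2 and 3 placed it within 13 bp of this position, while replicate 1 placed it 98 bp nearer to aurB. Of the Aurora genes, aurA thus ranked above aurB in 3 of 3 replicates.

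For mad2 (FBgn0035640, 3L 5812135 to 5813093, minus strand) the signal was 186.9, and the replicates disagreed more than at any other of the 9 genes. The ranks were 8767, 6676 and 2340, a range of 3.75 times, with replicate 3 the strongest. The IDR summit at 3L position 5813167 lay 74 bp upstream of the TSS. Replicate 3 had a summit 5 bp from it, replicate 1 had one 75 bp away, at 1 bp downstream of the TSS, and replicate 2 had its only one 172 bp away, at 246 bp upstream. A second pooled summit, with a signal of 89.32 and rank 11375 of 30000, lay 274 bp upstream and was not in the IDR list. No other gene started within 500 bp of the summit, and vn, on the same strand, ends 245 bp from the mad2 TSS.

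Bub1 (FBgn0031696, 2L 5278865 to 5283283, plus strand), the kinase that helps bring checkpoint proteins to the kinetochore, had the weakest peak, with a signal of 155.4 and IDR rank 6997 of 7477. The lowest signal kept in that list was 144.4. The summit at 2L position 5278547 lay 318 bp upstream of Bub1 but 1 bp inside Nin, which encodes the centrosomal protein ninein and starts there on the other strand. A separate pooled summit at 5278998, with a signal of 136.8 and rank 7826, lay 55 bp upstream of the inner of the Bub1 TSSs, which are 188 bp apart, and fell below the IDR limit. The strongest summit at Bub1 ranked 5233, 4493 and 4008 in replicates 1, 2 and 3, but at different places: 276 bp upstream of the outer TSS in replicate 1, 61 bp upstream of the inner TSS in replicate 2 and 440 bp upstream of the outer TSS in replicate 3. The ranks were thus close together but were not those of the same summit, since replicate 2 had its strongest beside the separate pooled summit. The place of the strongest summit differed more between replicates than at any other of the 9 genes.

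The order of the 9 genes by signal held in every replicate only at its large steps. Mad1 ranked above Bub3 and polo above BubR1 in 3 of 3 replicates, with no overlap of their ranks. The other 6 of the 8 neighbouring pairs in the order changed places in at least 1 replicate, and their ranges of ranks overlapped. The middle 4 genes spanned ranks 803 to 1852 and the last 4 spanned 2340 to 8767 over all replicates. These ranges do not overlap, but the groups were formed from the values themselves.

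**Figure D3:**
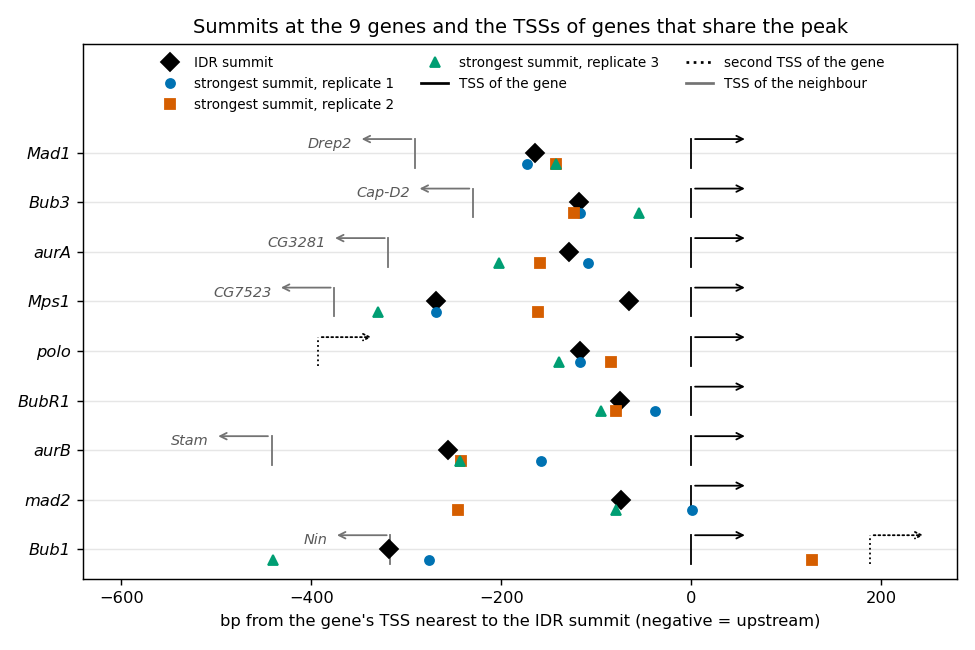
Position of the IDR summits (diamonds) and of the strongest summit in each replicate (colours, just below) in bp from the TSS nearest to the IDR summit (x, negative is upstream) for each of the 9 genes (y, strongest at the top), with TSSs of neighbours that share the peak and second TSSs of polo and Bub1 drawn as arrows. At 6 genes a neighbour starts 230 to 442 bp away on the other strand, and replicate summits spread most at Bub1.

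Divergent promoters held the peaks of 6 of the 9 genes. The neighbours that share a peak are Drep2 with Mad1, Cap-D2 with Bub3, CG3281 with aurA, CG7523 with Mps1, Stam with aurB and Nin with Bub1, and in each case the TSSs are 230 to 442 bp apart. Only at aurA was the strongest summit nearer to the named gene than to the neighbour. The same count over all genes with a shared peak was not made. Among all protein-coding genes 36.2% had an oppositely oriented gene starting within 1000 bp upstream, and among genes with a peak 62.5% did. The remaining 3 genes, polo, BubR1 and mad2, had no such neighbour. Genes with such a neighbour had a peak in 72% of cases, and genes without one in 24.4%. All 9 strongest summits were upstream of the nearest TSS, with a median of 129 bp, and 89.4% of all genes with a peak had theirs upstream, with a median of 99 bp.

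Other genes with ranks most like these were found over 5167 genes whose strongest IDR summit had a match in every replicate. The measure was the mean absolute difference of log2 ranks over the 3 replicates. Genes on the same peak as the named gene, such as Drep2 for Mad1, have the same ranks and were left out. Nearest to Mad1 were Polr1B, with ranks of 18, 12 and 27 and a difference of 0.28, and CG9626, with 0.39. The 2 nearest to Bub3 were ProRS-m and Snup, which share a peak with ranks of 910, 813 and 1635 (0.054). For aurA they were Ufd1 and NaPi-III, also on a shared peak (0.044), and for polo par-6 and CG8188, likewise on a shared peak (0.077). BubR1 had CG43739 (0.064) and Rubicon (0.072), and aurB had Lar (0.070) and CG15536 (0.073). Bub1, mad2 and Mps1 were not compared in this way, since the strongest IDR summit at each lacked a match in at least 1 replicate.

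Peaks were also found at most of 58 other genes, taken from 6 lists of this machinery and of kinases linked to it. Of these 49 had an IDR summit at a TSS, or 84.5%, against the 41.7% of protein-coding genes, and 45 of the 49 summits were upstream. Their median signal was 280.5, below the 329.3 of all genes with a peak, and 2 of them exceeded 1000, as did 7.36% of all genes with a peak. A peak was shared with another gene, coding or not, at 31 of the 49, a share that was not computed for all genes with a peak. Neighbouring genes on 1 peak are not separate observations. The lists were chosen with earlier results of these data known, so their share with a peak is a description only.

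Of the kinetochore genes 11 of 13 carried a peak, the strongest being Spc25 (514.6), which belongs to the microtubule-binding NDC80 complex, cid (479.7), the centromeric histone H3 variant, and Nnf1a (479.6). Nnf1b and Kmn1 had none in the IDR list, but each had a summit at a TSS in every replicate, with ranks of 8651 to 9042 for Kmn1. The genes that link kinetochores to dynein, and so strip the checkpoint proteins after attachment, had a peak at 6 of 6, led by Lis-1 (562.3), Zwilch (436.9) and rod (383.2). For the checkpoint's target and for genes that silence it the count was 6 of 8. The target itself, fzy, had the strongest peak of them (728.7, 91 bp upstream, shared with cni), followed among the matched genes by the phosphatase 2A subunit genes mts (258.5) and tws (247.6). The entry Mtor of this list is an older name of both Mgtor (342) and mTor (355.8) and was left out. Either would add 1 gene with a peak and come next after fzy. The Fzy-type activator gene cort and the checkpoint-silencing ATPase gene pch2 had no IDR summit.

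Partners of the Aurora kinases and Polo, and other mitotic kinases, were counted in the same way. In the list of the chromosomal passenger complex and proteins that work with it 4 of 5 had a peak, led by mei-S332 (480.4), the shugoshin that protects centromeric cohesion, Det (375.6), the survivin, and borr (280.5), the borealin. Haspin, whose kinase marks histone H3 for the complex, had none in the IDR list and a pooled summit of 128.8. Activators, anchors and substrates of the kinases had a peak at 13 of 16. The strongest by far was at sub, a spindle kinesin gene, with 6190, a summit 16 bp downstream of the TSS and ranks of 57, 63 and 56, followed by tum (1025), the centralspindlin GTPase-activating protein gene, and Map205 (604.3), a microtubule protein known to hold Polo. Klp10A, Klp61F and mtrm, an inhibitor of Polo in the oocyte, had no IDR summit, and at mtrm and Klp61F none was found in the pooled or replicate lists either. The list of other mitotic kinases also holds the Greatwall substrate gene endos and the DNA damage checkpoint kinase genes mei-41, lok and grp. In it 9 of 10 had a peak, led by the ATR kinase gene mei-41 (549.8). Next were SAK (434.9), the Polo-like kinase of centriole duplication, and gwl (337.0), the Greatwall kinase. Nek2 had none, with a pooled summit of 104.3.

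**Figure D4:**
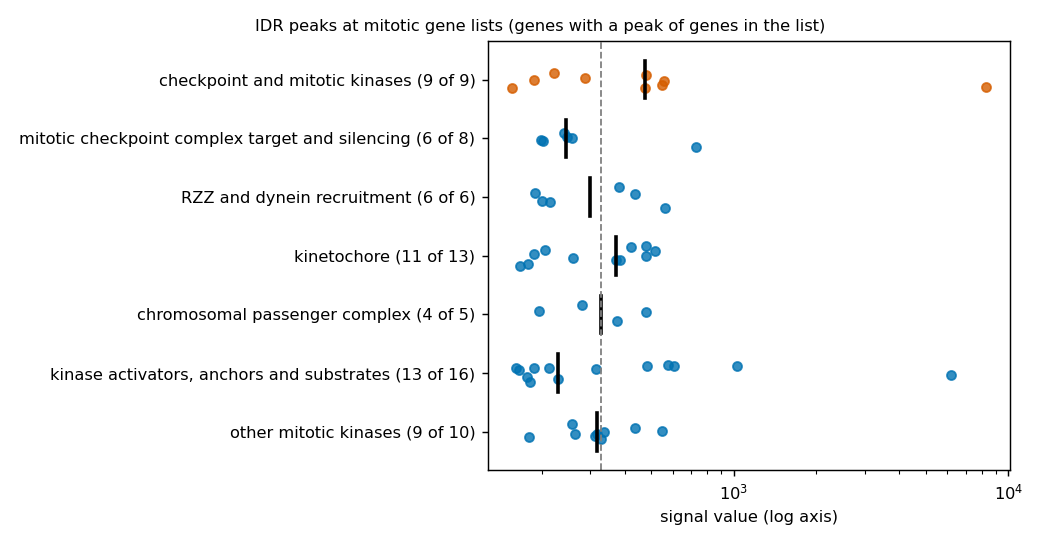
Signal value (x, log axis) of each gene with an IDR peak at a TSS in the 9 genes (orange) and in the 6 lists of other genes (blue), with the number of genes that have a peak given beside each name (y). Black bars are medians, the dashed line is the median of 329.3 over all genes with a peak, and Mad1 and sub stand apart on the right at 8294 and 6190.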

How the data were processed

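ChIP-seq peak lists on dm6 were used for 3 replicates, their pooled reads and the IDR filter. Per the deposited file lists, peaks were called per library, or on all 3 together, each time with a control. For the aligner, peak caller and versions, information was not given in the sources used here. Deposited lists hold a signal value per peak, the authors' own, and a -log10 q-value, which was not used because it is tied over the IDR list. Without read numbers the depth behind a peak is unknown, and no interval is given. Most peaks have 1 fixed width per list (410 bp for 50.5% of IDR peaks and 87.3% of pooled peaks, and 376, 460 and 424 bp in replicates 1, 2 and 3). This may limit how finely summits are placed, which was not tested. The IDR peaks are the 7477 strongest pooled peaks.

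TSSs came from Ensembl release 115 (BDGP6.54, coordinates of dm6). A gene has a peak when a summit, taken as start plus offset, lies within 500 bp of any TSS, and summits within 100 bp count as shared. Where several qualify, the strongest stands for the gene. Scripts (Python 3.11.15, pandas 2.3.3) were checked on planted summits. Counts are described beside the share of all protein-coding genes, and no test was made, since there is 1 group. Of 59 list entries 57 matched a symbol and 1 an older symbol, and 1 (Mtor) was unmatched. Named are all 9 genes, the genes at their summits, up to 3 leading members of each list and those without a peak, and the genes most alike in rank. The genes and lists were chosen with earlier results of these data known. Sequence on 2R is not shown. Alternatives were other TSS windows, peak sets, TSS choices, matching distances and leaving out each replicate.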

Additional observations from a re-analysis of the deposited data

How the results depend on the processing

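The count of 9 of 9 genes was the same with a TSS window of 1000 bp, with the whole pooled list and with only the outermost TSS of each gene, where 45%, 58.8% and 39.8% of protein-coding genes had a peak. It was 7 with a window of 250 bp (36.9% of protein-coding genes), which dropped Bub1 and aurB. With only the 3738 strongest IDR peaks it was 6, without Bub1, aurB and mad2, and 3761 protein-coding genes (26.9%) had a peak. Leaving out a replicate, so that an IDR peak had to be matched among the 7477 strongest of each of the others, gave 7 for each of the 3 replicates, in each case without Bub1 and mad2, and 33.4%, 33.6% and 34.5% of protein-coding genes. Of the 58 genes in the 6 lists 49 had a peak, 25 with the 3738 strongest IDR peaks and 30 to 38 on leaving out a replicate. At 6 genes the strongest IDR summit was matched within 100 bp in all 3 replicates. This became 3 within 50 bp (polo, BubR1 and Mad1) and 9 within 200 bp, where 57.4% and 97.6% of genes with a peak were matched. Among the 7477 strongest peaks of each replicate the count was 6, against 73.7%. Taking the summit nearest to a TSS changed the signal of Mps1 alone, to 329.9. Measured from the outermost TSS, the polo summit was 276 bp downstream, not upstream. The other 16 of 18 such values stayed as they were. The IDR list was made from these replicates, so their agreement over its peaks is not separate evidence.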
